A study of Mus musculus with 6 samples.

Results

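Respiratory complex I, the NADH:ubiquinone oxidoreductase of the inner mitochondrial membrane, was followed through its nuclear genes in mouse brains labelled E4f1 KO and in wild-type brains. The genes were chosen by name: every symbol that starts with Nduf, with pseudogene symbols ending in -ps left out, though 0 such symbols were listed. This gave 46 of the 24848 genes listed, 38 named as subunits and 8 assembly factors (Ndufaf). All 46 matched the RefSeq gene table of GRCm38, and all 46 were expressed highly enough to be tested. Of the 38, Ndufa4 is known today as a subunit of cytochrome c oxidase (complex IV) and Ndufa4l2 as its hypoxia-inducible relative, so 36 are held to be complex I subunits.

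The study sequenced messenger RNA from the brains of 6 mouse embryos at E14.5, 3 labelled E4f1 KO and 3 labelled wild type (WT). The series title places E4F1, a transcription factor with zinc fingers, upstream of pyruvate metabolism and of the Elongator complex, which modifies transfer RNA, in brain development. The labels give no treatment, strain, litter, embryo sex or KO allele, and do not say which cells of the brain carry the deletion. Each brain has a number of its own in its description.

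Complex I takes electrons from NADH, passes them along a chain of iron-sulfur clusters to ubiquinone, and pumps protons across the inner membrane. It is L-shaped. The N module in the matrix oxidises NADH, the Q module below it reduces ubiquinone, and a proximal and a distal membrane arm hold the proton pumps. The pumps are built around subunits encoded by mitochondrial DNA, which were not analysed here. Accessory subunits surround the catalytic core, and assembly factors help to build the enzyme without staying in it. In the human nervous system, faults in these genes are a known cause of Leigh syndrome.

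The expected counts, RSEM's estimates of read pairs per gene, summed to between 50186590 and 69068011 in the KO libraries and to between 42113465 and 74064707 in the WT libraries. Levels in CPM are counts relative to the TMM-scaled library size. E4f1 itself stood at 7.12, 7.01 and 6.92 CPM in the KO brains, against 20.7, 21.6 and 21.5 CPM in the WT brains, and so at 33.0% of the WT level in the fit (log2 fold change -1.60 ± 0.08 SE, 3 brains per group, adjusted p = 0.00142 by edgeR). In whole tissue, fewer cells of a type and less RNA per cell cannot be told apart. No cell type or region marker was at 0 in every library, and several marker sums did not overlap between the groups. The 6 neuron markers summed to 4955 to 5753 CPM in KO and to 6561 to 7580 CPM in WT, with negative fold changes in 5 of 6. Microglia markers summed to 80.2 to 126 CPM in KO against 45.7 to 74.8 CPM in WT, endothelial markers to 245 to 336 CPM in KO against 188 to 223 CPM in WT, and the 3 midbrain markers En1, En2 and Pax5 to 0.266 to 1.61 CPM in KO against 3.07 to 69.9 CPM in WT. The part of these differences in the values of the complex I genes was not tested. The sums overlapped between the groups for neural progenitor (1229 to 1408 CPM in KO, 1094 to 1632 CPM in WT), erythroid (703 to 1002 CPM in KO, 314 to 894 CPM in WT) and meningeal and connective tissue markers (433 to 5185 CPM in KO, 544 to 2624 CPM in WT).

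Ndufs5, an accessory subunit of the proximal membrane arm that faces the intermembrane space, was called lower in KO by its RSEM counts. No other complex I subunit passed the test. Ndufs5 lies on chromosome 4, from 123712710 to 123718186 on the minus strand (GRCm38). Its reads were shared with a copy, so the sequences come first. BC002163 is annotated as a processed pseudogene on chromosome 16 (42955631 to 42955949, plus strand, GRCm38), a copy of the spliced Ndufs5 coding sequence. Over the 319 bases that GENCODE gives for it, counted from the Ndufs5 start codon, it is identical to Ndufs5 at 317 (99.4%). Positions 66 to 120 hold both differences, T81C and A105G (the Ndufs5 base, the position from the A of the start codon, the BC002163 base). They are printed 5′ to 3′ with those bases in capitals, the only differences within the 319 bases. Bases outside these 319 were not compared, nor was the BC002163 entry that RSEM counted, which may have other ends.
Ndufs5: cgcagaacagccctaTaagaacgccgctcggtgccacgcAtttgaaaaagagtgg
BC002163: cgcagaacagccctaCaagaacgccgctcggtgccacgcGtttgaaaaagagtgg
After the second difference the pair runs on for 214 bases with none, and a read pair that lies wholly within that stretch matches both genes.

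Ndufs5 had expected counts of 254.2, 112.5 and 91.38 in KO 1 to KO 3, against 671.66, 513.85 and 740.96 in WT 1 to WT 3. BC002163 had 172.8, 235.5 and 264.62 in the KO brains, against 1120.34, 529.15 and 788.04 in the WT brains. Ndufs5 was the only one of the 46 genes with fractional counts, and it had them in all 6 libraries. Added to those of BC002163, they gave whole numbers to within 0.005 in each library, 427, 348 and 356 in KO and 1792, 1043 and 1529 in WT. RSEM had thus shared read pairs between these entries of the table.

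At the same library scale, Ndufs5 stood at 3.55, 1.96 and 1.78 CPM in KO and at 9.02, 12.5 and 11.1 CPM in WT. The groups do not overlap, and the highest KO value is that of KO 1. By these counts Ndufs5 stood at 22.5% of its WT level (95% interval 13.5% to 37.4%). Its log2 fold change was -2.15 ± 0.30 (SE, 3 brains per group, adjusted p = 0.0409 by edgeR's quasi-likelihood test). These values take RSEM's split of the shared read pairs as given. Of all 15848 tested genes, 0.492% were called lower and 0.511% higher in KO by this rule, where a gene is called at an adjusted p below 0.05 over all tested genes. By DESeq2, which called 4.06% of its tested genes lower and 4.81% higher, Ndufs5 was also lower (adjusted p = 8.05e-10), and limma on log2(TPM + 1) gave an adjusted p of 0.0187.

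BC002163 stood at 2.42, 4.13 and 5.19 CPM in KO and at 15.04, 12.9 and 11.9 CPM in WT, a log2 fold change of -1.76 ± 0.29 (edgeR adjusted p = 0.0570). Within each group the library with the highest Ndufs5 value was not the one with the highest BC002163 value, and KO 1 held the highest Ndufs5 and the lowest BC002163 value of the KO brains. Ndufs5 took 59.5%, 32.3% and 25.7% of the shared sum in KO 1 to KO 3, against 37.5%, 49.3% and 48.5% in WT 1 to WT 3.

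With the rows summed, an analysis added after the data were seen, the spread within groups narrowed. The sum was 5.97, 6.10 and 6.97 CPM in the KO brains, against 24.1, 25.4 and 23.0 CPM in the WT brains. It averaged 6.35 ± 0.55 CPM in KO and 24.1 ± 1.19 CPM in WT (SD, n = 3 each), and every KO brain lay far below every WT brain. The sum fell to 26.3% of its WT level (95% interval 22.1% to 31.2%), with a log2 fold change of -1.93 ± 0.10 (edgeR adjusted p = 0.00145). The call for Ndufs5 alone ended without KO 2, KO 3, WT 1, WT 2 or WT 3 (adjusted p = 0.0988, 0.124, 0.0826, 0.0984 and 0.154) and held without KO 1 (0.0313), whereas the sum was called in each of the 6 fits without 1 library, with adjusted p between 0.00380 and 0.0215 and a log2 fold change between -2.003 and -1.88. The counts do not tell how much of the sum was transcribed from either locus. With a score of the midbrain markers (En1, En2 and Pax5) as a covariate, the sum kept a log2 fold change of -1.82 ± 0.19. In a fit of only KO 1, KO 2, WT 1 and WT 2, the brains with neighbouring label numbers, it was -2.03 ± 0.13. The sum was called in neither fit (edgeR adjusted p = 0.203 and 0.0597), and nor was E4f1 (0.219 and 0.0721). The midbrain score itself did not overlap between the groups (-3.05 to -1.31 in KO, -0.19 to 4.12 in WT).

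**Figure D1:**
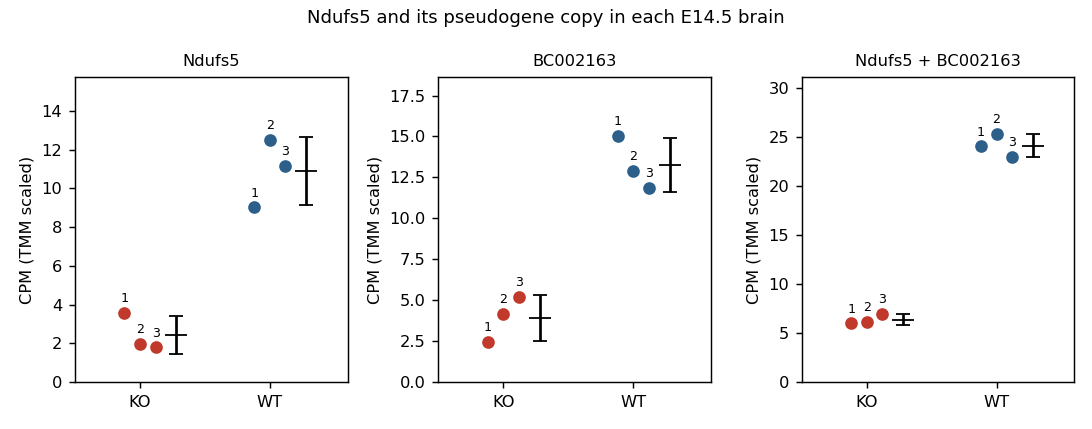
CPM after TMM scaling of Ndufs5, BC002163 and their sum in each brain, with the replicate number above each point and the mean ± SD of 3 brains beside it. KO 1 is the highest KO brain for Ndufs5 and the lowest for BC002163, while the 3 sums in KO lie between 5.97 and 6.97 CPM, against 23.0 to 25.4 CPM in WT.

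The genes nearest to Ndufs5 on chromosome 4, 5 on each side, held no call. Of these neighbours 6 were tested, with log2 fold changes between -0.16 and 0.55 and a smallest adjusted p of 0.386.

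The remaining 35 subunits stayed close to their WT levels. None was called by edgeR, by DESeq2 or by either limma fit, and 2 had an unadjusted edgeR p below 0.05, Ndufa1 on the lower side and Ndufv3 on the higher. Among all tested genes 9.31% were lower and 10.3% higher at that unadjusted p. Their log2 fold changes ran from -0.26 to 0.23 with a median of 0.02, 19 positive and 16 negative, beside a median of -0.00077 over all tested genes. For all 35 the 95% interval of the log2 fold change lay within 0.5 of 0, which was the case for 44.5% of all tested genes and for 60.4% of the 8428 tested genes whose mean CPM fell in the range of these subunits. Taken over all 35, these intervals reached from 71.6% of the WT level (Ndufa1) to 133% (Ndufv3).

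**Figure D2:**
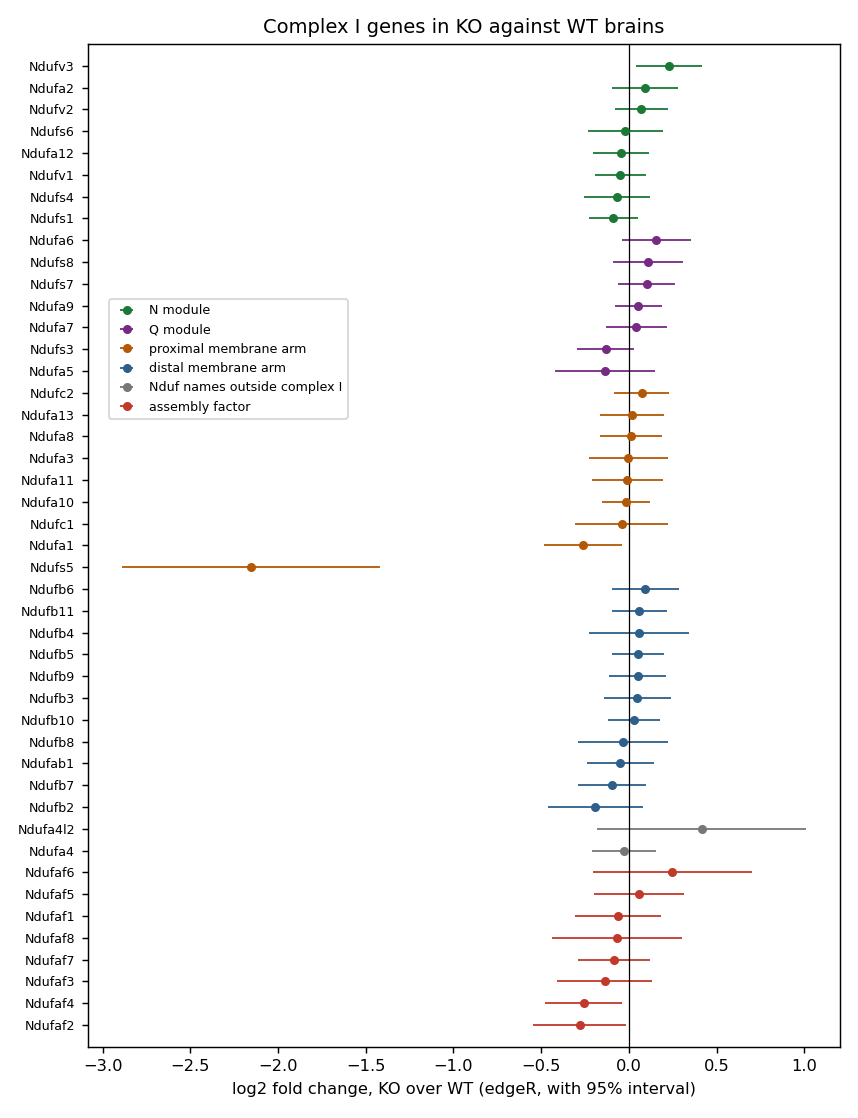
Log2 fold change of KO over WT for 45 of the genes, grouped by place in the enzyme, each with its 95% interval from the edgeR fit. Ndufs5, at -2.15, stands alone on the left, and the intervals of the other complex I subunits drawn lie within 0.5 of 0.

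The catalytic core of the matrix arm showed no call among its 7 subunits, and none had an unadjusted p below 0.05. Ndufv1 carries the flavin that takes electrons from NADH and had a log2 fold change of -0.05 ± 0.06. Ndufv2 and Ndufs1, which hold iron-sulfur clusters of the N module, had 0.07 ± 0.06 and -0.09 ± 0.06. Ndufs7 holds the last cluster before ubiquinone and had 0.10 ± 0.07, with 26.0, 25.8 and 25.5 CPM in KO against 23.6, 25.1 and 23.5 CPM in WT. Ndufs8, another cluster subunit of the Q module, had 0.11 ± 0.08. Ndufs3, a structural core subunit of the Q module, had -0.13 ± 0.07, with 39.1, 40.8 and 39.4 CPM in KO against 45.1, 44.7 and 40.9 CPM in WT. The groups do not overlap for Ndufs7 (KO higher) and Ndufs3 (KO lower), by margins smaller than the spread within a group, and both had adjusted p above the threshold (0.439 and 0.331).

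Groups did not overlap in CPM for 6 of the 36 subunits, 3 lower and 3 higher in KO, while among all tested genes 13.0% were lower and 14.6% higher without overlap. The 3 lower ones were Ndufs5, Ndufa1 and Ndufs3, and the 3 higher ones Ndufv3, Ndufs7 and Ndufb5. Ndufa1, a small X-linked subunit that spans the membrane once in the proximal arm, stood at 13.5, 15.1 and 14.3 CPM in KO, against 18.2, 16.7 and 16.4 CPM in WT. Its log2 fold change was -0.26 ± 0.09 (edgeR adjusted p = 0.206), and it ranged from -0.30 to -0.21 over the 6 fits without 1 library. Ndufb5 of the distal arm had 0.05 ± 0.06.

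Among the accessory subunits, the largest fold changes above 0, after Ndufv3, were those of Ndufa6 of the Q module (0.16 ± 0.08), Ndufb6 of the distal arm (0.09 ± 0.08), Ndufa2 of the N module (0.09 ± 0.08) and Ndufc2 of the proximal arm (0.07 ± 0.07). The largest below 0, after Ndufs5 and Ndufa1, were those of Ndufb2 of the distal arm (-0.19 ± 0.11), Ndufa5 of the Q module (-0.14 ± 0.12), Ndufb7 of the distal arm (-0.10 ± 0.08) and Ndufs4 of the N module (-0.07 ± 0.08). Ndufs4 is the gene deleted in a widely used mouse model of Leigh syndrome. None of these 8 genes had an unadjusted p below 0.05.

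By place in the enzyme, the N module (8 subunits) had a median log2 fold change of -0.03, the Q module (8) 0.05, the proximal membrane arm (9) -0.01 and the distal membrane arm (11) 0.05. Only the proximal arm held a call, Ndufs5. Of 12 genes sought for the distal arm, 11 were listed, so the 36 subunits are not the whole nuclear set. The summed level of all 36 subunits was 1412, 1421 and 1386 CPM in KO, against 1435, 1438 and 1342 CPM in WT. These sums overlap, with WT 3 the lowest of the 6 brains, and averaged 1406 ± 18.0 CPM in KO and 1405 ± 54.7 CPM in WT (SD, n = 3 each). The 8 proximal arm subunits other than Ndufs5 summed to 288, 287 and 286 CPM in KO, against 292, 292 and 277 CPM in WT, and here too the groups overlap.

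Levels of different genes were compared per length, in TPM, RSEM's abundance corrected for transcript length. The subunits of this enzyme, most of which enter it in 1 copy, differed widely in transcript level. Ndufa3, Ndufa7 and Ndufc2 were the highest of the 36 over all brains, at 349 ± 6.79, 334 ± 13.2 and 328 ± 14.7 TPM in KO, against 347 ± 27.0, 326 ± 20.03 and 315 ± 10.1 TPM in WT (SD, n = 3 each). Besides Ndufs5, the lowest were Ndufa11 (34.5 ± 3.27 TPM in KO, 35.3 ± 1.09 TPM in WT), Ndufb2 (63.6 ± 6.98 TPM in KO, 73.7 ± 6.03 TPM in WT) and Ndufs4 (73.2 ± 4.89 TPM in KO, 77.9 ± 4.99 TPM in WT). Ndufs5 ranked last of the 36 in KO, at 30.3, 17.1 and 15.3 TPM, against rank 31 in WT, at 77.8, 107 and 96.7 TPM. These Ndufs5 values exclude the reads that RSEM gave to BC002163.

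**Figure D3:**
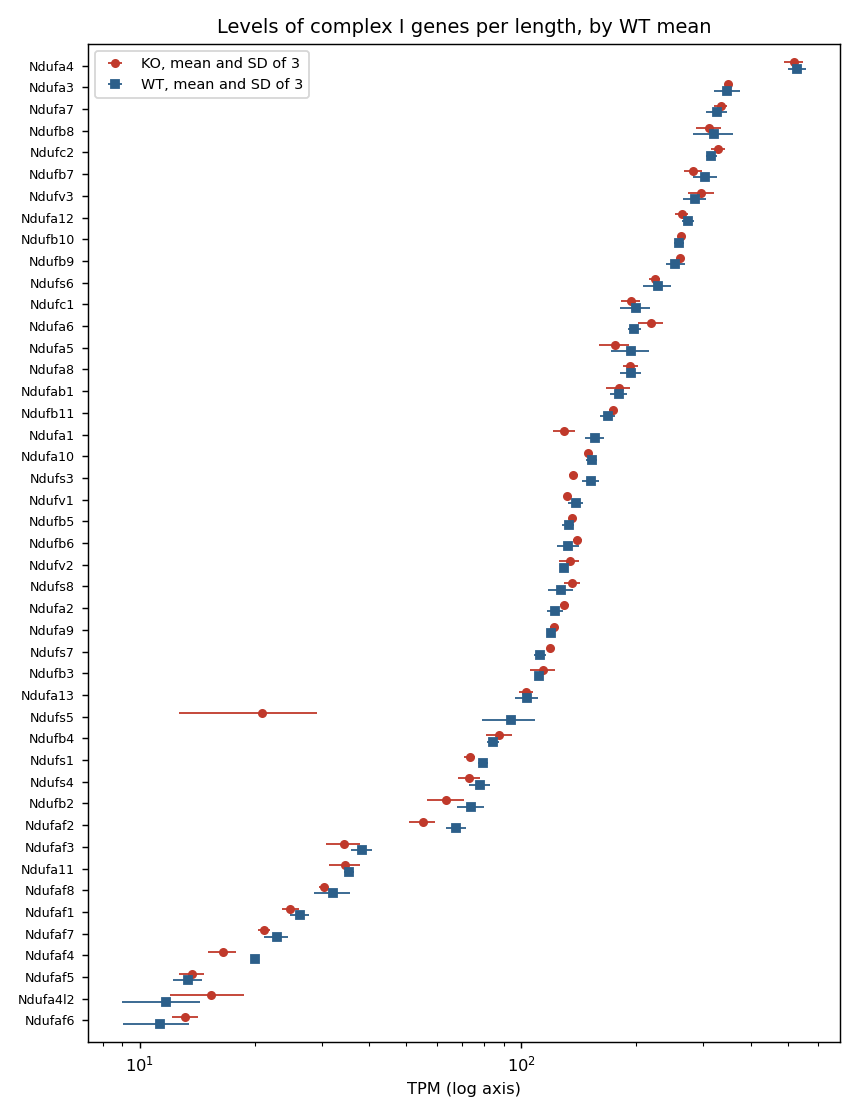
Mean TPM (log axis) of 45 of the genes in KO and WT brains, with the SD of 3 brains, ordered by the WT mean. Ndufs5 is the gene whose KO mean (20.9 TPM) lies furthest from its WT mean (93.8 TPM), and the assembly factors lie at the low end, between 11.3 (Ndufaf6) and 67.6 TPM (Ndufaf2) in WT.

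The 8 assembly factors held no call in KO by edgeR, DESeq2 or limma. At an unadjusted edgeR p below 0.05, 2 were lower and none was higher, beside 9.31% lower and 10.3% higher among all tested genes. Ndufaf2, which acts late, when the N module is added, stood at 10.5, 9.30 and 11.0 CPM in KO, against 12.9, 12.8 and 11.6 CPM in WT (log2 fold change -0.28 ± 0.11, unadjusted p = 0.0416, adjusted p = 0.237 by edgeR). Ndufaf4, which works with Ndufaf3 on the Q module early in assembly, stood at 21.6, 21.3 and 25.4 CPM in KO, against 27.0, 27.4 and 27.0 CPM in WT (-0.26 ± 0.09, unadjusted p = 0.0278, adjusted p = 0.205 by edgeR). In both genes every KO brain lay below every WT brain, and the other 6 factors overlapped between the groups. Among all tested genes 13.0% were lower without overlap.

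Ndufaf3, the partner of Ndufaf4, had a log2 fold change of -0.14 ± 0.11, and Ndufaf1, a factor for the membrane arm, -0.06 ± 0.10. Ndufaf7, an arginine methyltransferase of the matrix, had -0.08 ± 0.09. Ndufaf5, which in human cells hydroxylates NDUFS7, had 0.06 ± 0.11, and its partner Ndufaf8 -0.07 ± 0.15. Ndufaf6, needed in human cells for an early step at the membrane, had 0.25 ± 0.19 and one of the widest 95% intervals, from -0.21 to 0.70. The 8 factors had a median of -0.08, with 6 negative and 2 positive values.

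Summed, the assembly factors reached 96.5, 94.1 and 98.7 CPM in KO, against 103, 108 and 103 CPM in WT. The KO brains were all below the WT brains on this scale and in TPM (205 to 211 TPM in KO, 226 to 235 TPM in WT), but the groups overlapped when only the library totals set the scale (95.7 to 100.4 CPM in KO, 98.3 to 105 CPM in WT). That scaling moved the median log2 fold change of all genes by 0.0656. Within the TMM-scaled sum, the largest differences in mean CPM were those of Ndufaf4 (22.7 in KO, 27.2 in WT) and Ndufaf2 (10.3 in KO, 12.5 in WT). Of the 8 factors, 6 had negative and 2 positive fold changes.

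**Figure D4:**
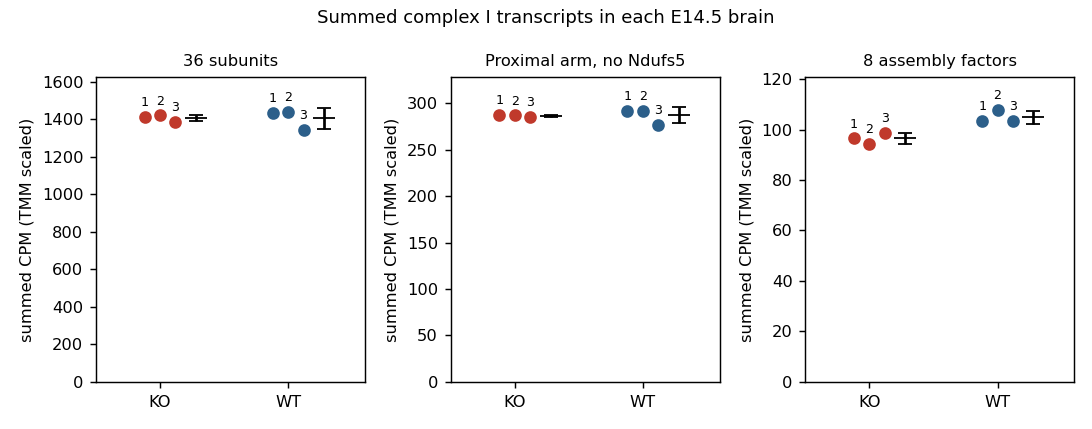
Summed CPM after TMM scaling in each brain for the 36 complex I subunits, for the 8 proximal arm subunits other than Ndufs5 and for the 8 assembly factors, with the mean ± SD of 3 brains and axes that start at 0. The subunit sums overlap between the groups, while the assembly factor sums lie between 94.1 and 98.7 CPM in KO and between 103 and 108 CPM in WT.

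Ndufa4 and Ndufa4l2, the Nduf names outside complex I, were not called. Ndufa4 was the most abundant of the 46 genes per length, at 518 ± 29.9 TPM in KO and 530 ± 29.0 TPM in WT (SD, n = 3 each), with a log2 fold change of -0.03 ± 0.08. Ndufa4l2 stood at 3.89, 4.10 and 5.84 CPM in KO, against 2.86, 4.38 and 3.14 CPM in WT. Its log2 fold change of 0.42 ± 0.25 had a 95% interval from -0.18 to 1.01, the widest after that of Ndufs5, so neither no change nor a level of 202% of WT lay outside it.

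The deposited tables also give each gene a transcript length weighted by the estimated share of its transcripts, a readout separate from its level. Of the 46 genes, 12 varied by more than 1 base between libraries, and 2 of them did so without overlap between the groups. These genes were chosen after their values were seen, and an exact permutation test of 3 against 3 brains cannot give a p under 0.1. For Ndufv3, an accessory subunit of the N module with known splice forms, the weighted length was 619, 606 and 640 bases in KO, against 586, 574 and 578 bases in WT. The tables list 2 Ndufv3 transcripts, and GENCODE gives their counterparts 1582 and 493 bases, so a longer weighted length stands for a larger estimated share of the longer form. For Ndufab1, the mitochondrial acyl carrier protein that is bound in the enzyme, it was 666, 666 and 677 bases in KO, against 692, 690 and 684 bases in WT. Of the 5813 tested genes with such variation, 10.1% were longer and 10.1% shorter in KO without overlap.

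For Ndufv3, whether the groups overlap depended on the scale. It stood at 46.9, 49.9 and 47.6 CPM in KO, against 43.7, 42.2 and 37.6 CPM in WT, every KO brain above every WT brain (log2 fold change 0.23 ± 0.08, unadjusted p = 0.0254, adjusted p = 0.197 by edgeR). In TPM, which divides by length, it stood at 291, 322 and 278 in KO and at 298, 296 and 263 in WT, and the groups overlap, with the KO mean higher on both scales.

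**Figure D5:**
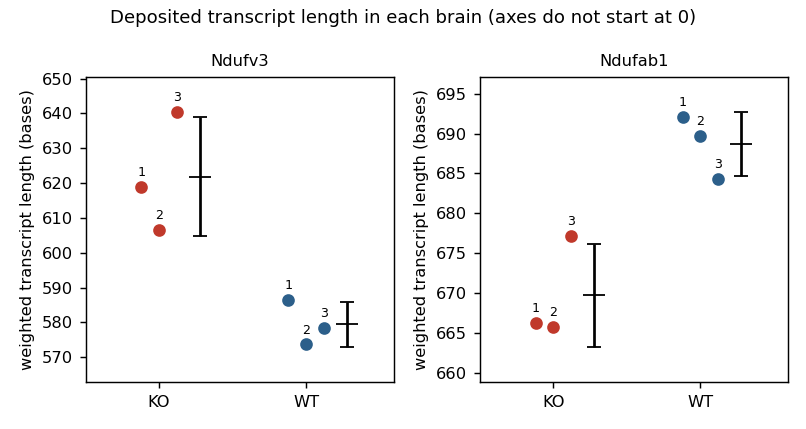
Weighted transcript length in bases of Ndufv3 and Ndufab1 in each brain, with the mean ± SD of 3 brains; the axes do not start at 0. Ndufv3 is longer in every KO brain (606 to 640 bases) than in any WT brain (574 to 586 bases), and Ndufab1 is shorter in every KO brain (666 to 677 bases) than in any WT brain (684 to 692 bases).

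Promoters of the members were searched for the letters TGACGT on both strands. They form the core of the sequence that E4F1 is known to bind, and are also part of the cAMP response element TGACGTCA of the ATF and CREB factors. RefSeq promoter windows (250 bases before to 50 after the start, GRCm38.p6) were at hand for 40 of the 46 genes. TGACGT was present in 4 of these 40 genes (10%), against 8.37% of all 27025 genes in the table, and TGACGTNA in 3 (7.50%, against 3.36%). The matches are shown 5′ to 3′ on the strand of the gene, with the 6 letters in capitals (ACGTCA is the same motif read on the other strand).
Ndufa10 (chr1:92473810-92473835, minus strand): cactcagtggTGACGTcatggcagcg
Ndufa11 (chr17:56717594-56717619, plus strand): ttacctttccTGACGTcacgggcgtc
Ndufb2 (chr6:39592541-39592566, plus strand): tgcgacgcagTGACGTcacgggccgg
Ndufa5 (chr6:24527756-24527781, minus strand): gtactcagagACGTCAgtcggtctct
The motif begins 67 bases before the start used for the Ndufa10 window, 158 before that of Ndufa11 and 14 before that of Ndufb2. For Ndufa10 this start lies inside the RefSeq gene span, which reaches to 92473825 on chromosome 1. None of these 4 genes was called, and their log2 fold changes were -0.02 ± 0.06, -0.01 ± 0.08, -0.19 ± 0.11 and -0.14 ± 0.12 in the order shown. The Ndufs5 window (chr4:123718137-123718436, minus strand) holds neither TGACGT nor its first 5 letters.

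Assembly genes of complex I that do not carry an Nduf name gave 1 call, beside 0.492% of all tested genes called lower and 0.511% called higher by edgeR. Of the 10 tested, Dmac1, a component needed to assemble the distal membrane arm in human cells, stood at 16.4, 15.7 and 16.2 CPM in KO, against 22.4, 22.0 and 23.5 CPM in WT. It fell to 71.0% of its WT level (95% interval 62.7% to 80.4%), a log2 fold change of -0.49 ± 0.07 (edgeR adjusted p = 0.0472; DESeq2 adjusted p = 5.87e-06), and every KO brain was below every WT brain. Its value stayed between -0.51 and -0.46 over the 6 fits without 1 library, but its call ended in each of them (adjusted p between 0.0918 and 0.260). The 10 genes had a median of -0.03 and a highest value of 0.37, with 7 negative and 3 positive. At an unadjusted edgeR p below 0.05, 1 was lower and 1 higher, beside 9.31% lower and 10.3% higher over all tested genes.

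The other respiratory chain complexes were read in the same fit. Among 8 tested genes of complex II, 15 of complex III, 31 of complex IV and 21 of complex V, subunits and assembly factors together, edgeR called none in either direction, with medians of 0.09, -0.02, -0.09 and 0.02. At an unadjusted p below 0.05 the 4 lists held 0, 0, 2 and 1 lower genes and 0, 1, 2 and 3 higher ones. Over all tested genes 9.31% were lower and 10.3% higher at that unadjusted edgeR p. DESeq2 called 0, 0, 1 and 2 genes of these lists higher and none lower, beside 4.06% lower and 4.81% higher over all genes. The genes with the smallest p in each were Sdhb of complex II (0.12 ± 0.06), Uqcrc2 of complex III (0.16 ± 0.06), the copper chaperone Cox17 for complex IV (0.33 ± 0.10) and Atp5d of the ATP synthase, complex V (0.23 ± 0.06). Of 15 tested genes of mitochondrial iron-sulfur cluster assembly, which supply the clusters of complex I, edgeR called 1 higher, Hspa9, and none lower. Among all tested genes edgeR called 0.511% higher and 0.492% lower. DESeq2 called 2 of the 15 higher and 1 lower, beside 4.81% higher and 4.06% lower over all genes. At an unadjusted edgeR p below 0.05, 3 were higher and 1 lower, beside 10.3% higher and 9.31% lower of all tested genes. Log2 fold changes in this list ran from -0.79 to 0.79 with a median of 0.06. Hspa9, a mitochondrial chaperone, stood at 288, 255 and 277 CPM in KO, against 201, 186 and 190 CPM in WT (0.51 ± 0.07, edgeR adjusted p = 0.0382), and its call ended in each fit without 1 library (adjusted p between 0.0559 and 0.232).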

How the data were processed

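Messenger RNA was measured in 3 E4f1 KO and 3 WT brains, grouped by their titles. Per the submitters' processing notes, the reads passed through Trimmomatic and FastQC, STAR 2.5.3a and RSEM 1.2.28 on mm10 (GRCm38). The library kit is stranded, per the labels' protocols, and the sources used here do not give the strand setting of the counting. The authors deposited expected counts, TPM and weighted lengths per gene and library. The deposited FPKM values were not used.

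Expected counts were rounded and tested with edgeR (version 4.0.16): filterByExpr, TMM scaling, robust quasi-likelihood F test, two-sided, Benjamini-Hochberg adjustment over 15848 genes, called below 0.05. Levels in CPM are TMM-scaled. Alternatives were DESeq2 (version 1.42.0), limma (version 3.58.1) on log2 TPM with a pseudocount of 1 or 0.1 (genes reaching 1 TPM in 3 libraries), other scalings, no filter, the replicate number as a block, 4 brains alone, a midbrain score, and leaving out each library. Counts of any pair of libraries within a group differed beyond sampling noise (chi-square per degree of freedom 45.1 to 175). No label names separate litters, so p-values measure the spread between these brains.

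Members and lists were chosen with earlier results of these data known. Genes named are E4f1, called members, core subunits, assembly factors, the 5 largest other changes each way, the 3 highest and lowest by TPM, and, per other list, called genes or that with the smallest p; Ndufs3, Ndufs7 and Ndufb5 as groups without overlap, BC002163, Ndufab1 and promoter matches were added after their values were seen. The values of 1 member are not reported here; it stays in the counts and sums.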

Additional observations from a re-analysis of the deposited data

How the results depend on the processing

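Of the 46 genes, Ndufs5 was the only one called under any alternative; the other 45 were not called in any of the 15 alternatives, by edgeR, DESeq2 or limma. Ndufs5 kept its negative sign in all of them. The subunit count of 1 became 0 with the replicate block, with the 4 brains of neighbouring label numbers and with the midbrain score, where Ndufs5 had log2 fold changes of -2.21 (adjusted p = 0.0783), -1.95 (0.328) and -2.66 (0.834). Without 1 library the count was between 0 and 1 and Ndufs5 between -2.54 and -1.98. With BC002163 summed in, the count was 0 in the 4 brains (-2.03) and with the midbrain score (-1.82), and 1 with the replicate block (adjusted p = 0.0173), DESeq2 and each library left out. The cause of these losses was not tested. The assembly factor count stayed at 0. Dmac1 was not called with DESeq2 size factors in edgeR, library totals, no filter, the block, the 4 brains, the midbrain score or any library left out (0 calls each). For complexes II to V with iron-sulfur assembly, 1 call became 6 with DESeq2, 2 with limma at either pseudocount, 2 with DESeq2 size factors, and 0 with no filter, the block, the 4 brains, the midbrain score and each library left out. Over all genes, 159 calls became 1438 with DESeq2, 245 and 248 with limma at pseudocounts of 1 and 0.1, 66 with the replicate block, 0 with the 4 brains (809 lower and 737 higher at an unadjusted p below 0.05 by edgeR), 0 with the midbrain score (345 and 408), and 36 to 82 without 1 library. The median of the subunits, 0.02, moved to 0.0798 with library totals and 0.10 with the midbrain score, and their summed log2 ratio, 0.0018, moved to 0.0662 with library totals. Searching for TGACG raised the promoter count from 4 to 16 of the 40 genes (40%, against 23.0% of all genes in the table). The labels give no pairing of the brains beyond the replicate number that the block uses. Deviations of same-numbered KO and WT brains correlated at 0.12, 0.17 and 0.02 across genes, and those of differently numbered brains at -0.24 to 0.12. Deviations were taken from the mean of 3 brains per group, so this check cannot decide whether the numbers pair the brains. Among the members not called, Ndufa4l2, Ndufaf6 and Ndufaf8, at 2.86 to 5.84 CPM, had the widest 95% intervals.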
